A study of Mus musculus with 2 samples.

Results

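The genes described here take glucose into the cell and carry it down to lactate: Slc2a1, Hk2, Pfkp, Aldoa, Tpi1, Pgk1, Pgam1, Eno1, Pkm and Ldha. They were taken by name, as a list of pathway steps, and all 10 were found among the 16416 genes of the deposited single-cell table. Their RNA was followed across 22 deposited cell clusters and 2 libraries. Glycolysis splits glucose in the cytosol and yields ATP and pyruvate without oxygen, and lactate dehydrogenase turns pyruvate into lactate so that the path can go on. Low oxygen raises most of its genes through hypoxia-inducible factor 1 (HIF-1), and T cells and macrophages raise it when they are activated. Tumors are known for high glucose uptake and lactate output even where oxygen is present.

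Tumors grown in mice of 2 genotypes were compared. The WT hosts were wild-type. The S303/7A hosts carry heat shock factor 1 (HSF1) in which the serines at residues 303 and 307 are alanine. HSF1 drives the heat shock response, in which chaperone genes are induced when proteins misfold, and the series' title places the question in NK cells and their stress response. The sources used here do not name the tumor line, its own Hsf1 genotype or the age of the mice. Each genotype gave 1 library from pooled tumors (the design text names 4 mice), so no difference between genotypes has a replicate check, and the mice within a library cannot be told apart. Live CD45+ and CD45- cells were sorted and mixed before 3′ end droplet sequencing, so the balance of immune and other cells was set by the mix.

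There were 6654 WT cells with 8.71e+07 UMIs in all and 4802 S303/7A cells with 7.28e+07 UMIs. A UMI marks 1 captured RNA molecule. The median cell had 7698 UMIs in WT and 13028 in S303/7A, and the gap differed by class: the S303/7A median was 2.61 times the WT median in MF, 2.10 times in Mo, 1.83 times in Treg, 1.78 times in DC, 1.62 times in NK, 1.32 times in CD8T and 1.10 times in Tumor and Stromal cells. The deposited class names were checked against their markers: in all 11 classes the summed level of the class's own markers was at least 10.9 UMIs per 10000. Another list summed higher in DC, pDC and Treg of both libraries and in WT B cells: DC had 29.2 for monocyte markers in WT and 26.1 for macrophage markers in S303/7A beside own sums of 12.95 and 10.9, WT pDC had 113 for monocyte markers beside 72.1, and WT Treg had 23.1 for CD8T markers beside 14.8. The 4 collagen and matrix markers shared by Tumor and Stromal cells do not tell those classes apart. In both libraries together 48 cell barcodes were shared, 1.00% of the S303/7A cells. Levels below are means over the cells of a cluster or class, in UMIs per 10000 UMIs of the cell (CP10K), so a lower level is a smaller share of the cell's UMIs. Ratios of summed UMIs carry exact 95% intervals that hold counting error alone: cells of 1 library do not replicate a genotype.

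Slc2a1 (glucose transporter GLUT1) lies at chr4:119108711-119137983, plus strand. Hk2 (hexokinase 2, which traps glucose as glucose 6-phosphate) lies at chr6:82725025-82774454, minus strand. Pfkp (phosphofructokinase, platelet type, the committed step) lies at chr13:6579768-6648777, minus strand. Aldoa (aldolase A, which splits the sugar) lies at chr7:126795234-126800751, minus strand, and Tpi1 (triosephosphate isomerase, which interconverts its products) at chr6:124810586-124814296, minus strand. Pgk1 (phosphoglycerate kinase, an ATP-forming step) lies at chrX:106187100-106203699, plus strand. Pgam1 (phosphoglycerate mutase) lies at chr19:41911923-41918660, plus strand, and Eno1 (enolase) at chr4:150236721-150248879, plus strand. Pkm (pyruvate kinase, the other ATP-forming step) lies at chr9:59656368-59679375 and Ldha (lactate dehydrogenase A) at chr7:46841475-46855627, both on the plus strand. All are whole protein-coding genes of GENCODE M21 on GRCm38. Eno1 is uncertain, because 84.3% of the 31-base words in the last 500 bases of its transcript also occur in Eno1b. The Eno1b row itself was low, at 0.0434 CP10K (WT) and 0.0336 (S303/7A) Tumor cells.

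The promoters of the members are shown because HIF-1 binds a short core in the DNA of many glycolysis genes. The RefSeq windows (GRCm38.p6, 250 bases before to 50 after a start) gave 16 promoters for the 10 genes. The core was searched as ACGTG or GCGTG on both strands. It was found in 13 of the 16 windows, against 43.8% of all 32851 mouse promoters of the same length, and in 9 of 10 members. ACGTG alone was found in 8 of 16 windows, against 19.6% of all promoters, and in 7 of 10 members. The shares of all promoters are per window, while a member may have several windows, so the member counts have no share beside them. Overlapping Aldoa windows hold the same core, and overlapping Eno1 windows the same cores, so the window counts hold some cores more than once. Below, capitals mark the core on either strand (CACGT and CACGC are the core read from the other strand). Slc2a1 is shown as the member whose level varied most, Pgk1 for its pair of close cores, Ldha for the most cores of any member (7), and Tpi1 as the member with none. The windows are chr4:119108495-119108794 (plus strand), chrX:106186850-106187149 (plus), chr7:46845554-46845853 (plus) and chr6:124814109-124814408 (minus).
Slc2a1: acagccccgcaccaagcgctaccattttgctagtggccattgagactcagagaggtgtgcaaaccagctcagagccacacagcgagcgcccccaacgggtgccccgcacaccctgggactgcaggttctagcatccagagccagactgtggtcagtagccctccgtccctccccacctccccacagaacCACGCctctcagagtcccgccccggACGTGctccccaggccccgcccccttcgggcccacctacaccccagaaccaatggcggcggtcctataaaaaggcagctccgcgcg
Pgk1: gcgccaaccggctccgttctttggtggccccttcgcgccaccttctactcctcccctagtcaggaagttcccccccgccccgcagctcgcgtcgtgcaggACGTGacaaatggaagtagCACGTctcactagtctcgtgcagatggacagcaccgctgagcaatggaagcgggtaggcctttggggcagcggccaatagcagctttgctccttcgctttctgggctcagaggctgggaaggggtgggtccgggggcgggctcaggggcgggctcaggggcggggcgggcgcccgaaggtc
Ldha: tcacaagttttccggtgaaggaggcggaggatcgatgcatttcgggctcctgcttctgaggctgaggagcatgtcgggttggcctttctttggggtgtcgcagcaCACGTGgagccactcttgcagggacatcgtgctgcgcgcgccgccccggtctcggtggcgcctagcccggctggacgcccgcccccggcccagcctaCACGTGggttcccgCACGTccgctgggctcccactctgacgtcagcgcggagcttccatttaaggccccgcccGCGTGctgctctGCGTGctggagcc
Tpi1: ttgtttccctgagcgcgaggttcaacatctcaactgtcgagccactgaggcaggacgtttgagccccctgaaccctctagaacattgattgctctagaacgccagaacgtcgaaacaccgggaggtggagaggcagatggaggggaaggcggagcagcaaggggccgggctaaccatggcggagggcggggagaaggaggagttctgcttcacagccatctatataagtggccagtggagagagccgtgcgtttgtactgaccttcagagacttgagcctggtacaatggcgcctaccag
The Ldha window holds 2 copies of the E-box CACGTG, which Myc and other factors bind and which contains the HIF core on both strands, so its 7 matches overlap. No other member window holds an E-box (1 of 16, against 7.15% of all promoters). The paired heat shock element units GAANNTTC or TTCNNGAA, bound by HSF1, were found in 0 of 16 windows, against 15.1% of all promoters. A match is a description of the letters and not a binding site, and no match says only that these letters are not in this window.

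Summed over the 10 members, regulatory T cells, the C02 macrophages and the C14 tumor cells carried the most glycolysis RNA. Treg (cluster C12) stood at 53.6 CP10K (WT) and 67.8 (S303/7A), C02 at 59.9 and 53.4, and C14 at 53.6 and 57.8. Monocytes (C07) followed at 52.2 and 51.6, the cycling CD8 T cells of C11 at 47.7 and 55.8, and Stromal cells (C15) at 46.6 and 56.1. At the other end were NK cells (C10) at 25.8 and 27.9, plasmacytoid dendritic cells (C19) at 19.9 and 21.3, and the dendritic cells of C17 at 19.9 and 19.6. The highest cluster was thus 3.08 times the lowest in the mean of the libraries, over the 20 clusters with at least 20 cells in each library. Only 6 of the 19 neighbouring pairs in the order stood apart, meaning that the ranges of their 2 libraries did not overlap. The top 3 clusters did not stand apart from their neighbours among them. The B cells (C21) had 14 cells in S303/7A and cluster C22 of class Gr had 9 cells in WT, so they were not placed in the order. The sum follows Pkm, Aldoa and Ldha far more than Slc2a1, Hk2 and Pfkp, which add few UMIs.

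**Figure D1:**
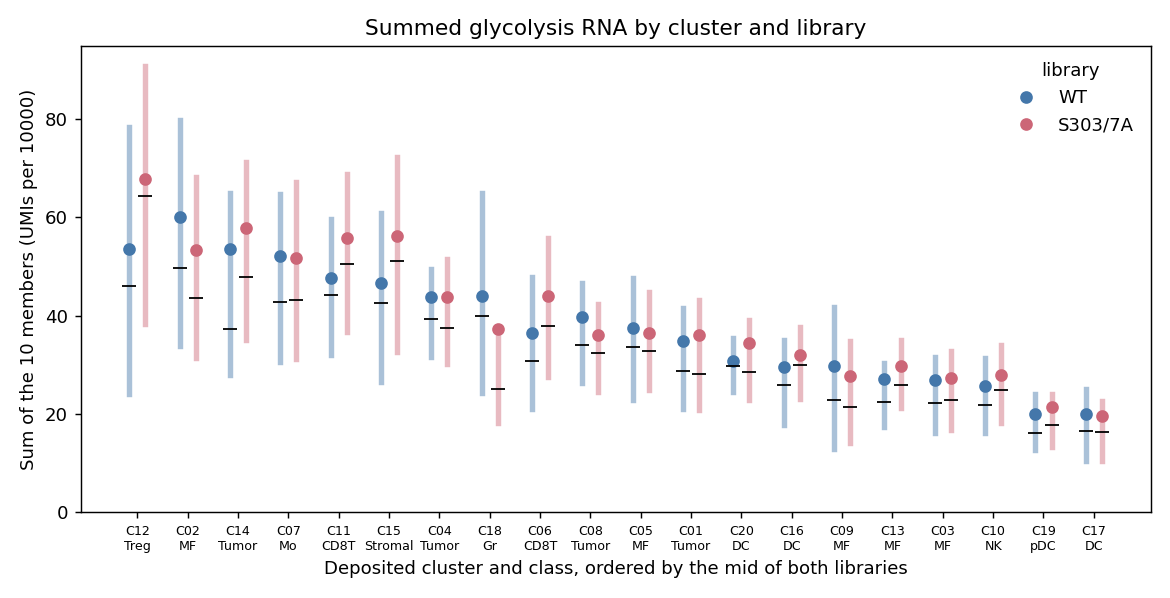
Summed level of the 10 members (y axis, UMIs per 10000) in the 20 ordered clusters (x axis), by library. Dots are means over cells, black dashes medians and bars the middle quartiles over cells, which are not replicates. Treg, C02 and C14 are highest and C17 lowest, at 19.9 and 19.6.

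Among the members, RNA of the glucose transporter and of hexokinase 2 had the widest ranges between clusters, though their lowest clusters held few UMIs. Slc2a1 stood at 1.42 CP10K (WT) and 2.40 (S303/7A) in the C14 tumor cells, and both values lay above those of every other cluster ordered. The Gr cells of C18, whose class carries neutrophil markers, followed at 0.734 and 1.40, from 5 and 11 UMIs, then monocytes at 0.625 and 0.582 and the C02 macrophages at 0.621 and 0.571. The other tumor clusters were far lower: C04 had 0.304 and 0.297, C08 0.284 and 0.304, and C01 0.181 and 0.199. C17 was lowest at 0.0817 and 0.0530, from 7 and 5 UMIs, so the top cluster was 28.4 times the bottom one. In the C14 tumor cells 79.9% of WT and 91.2% of S303/7A cells had a Slc2a1 UMI, at median depths of 33231 and 32884 UMIs. In C17, the lowest cluster, 5.56% and 5.88% did, at median depths of 5667 and 10450 UMIs.

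Hexokinase 2 RNA was highest in myeloid clusters. Hk2 was highest in the C09 macrophages, at 0.937 CP10K (WT) and 1.03 (S303/7A), although those cells were shallow, with median depths of 1386 and 2545 UMIs. The C02 macrophages had 0.692 and 0.687, and monocytes 0.507 and 0.552. C18 had 0.259 and 1.28, from 6 and 14 UMIs, and did not stand apart from either neighbour in the order. Lymphocytes were low: the C06 CD8 T cells had 0.0408 and 0.101, Treg 0.0182 and 0.106, C11 0.0547 and 0.0543, and NK cells 0.0398 and 0.0400. The spread from C09 to NK cells was 24.7 times, with 6 and 5 Hk2 UMIs in NK cells.

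Pfkp was highest in T cells and the C20 dendritic cells. It stood at 0.983 and 1.21 in Treg, 0.961 and 0.961 in the C20 dendritic cells, 0.933 and 0.823 in C11, and 0.882 and 0.846 in C06. The C01 tumor cells were lowest at 0.142 and 0.139, and the C03 macrophages had 0.262 and 0.108. Monocytes, with 0.881 and 0.709, were among the higher clusters for Pfkp as for Hk2, and NK cells had 0.527 and 0.589. Treg stood apart from C20, and C20 from C11, and the top was 7.80 times the bottom.

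The enzymes from aldolase to lactate dehydrogenase varied less between clusters, by 3.46 to 5.10 times. Aldoa peaked in Treg at 10.8 and 14.4 CP10K and was lowest in plasmacytoid dendritic cells at 3.51 and 3.77. Tpi1 peaked in the C02 macrophages at 8.88 and 6.63, and its lowest values were 1.94 and 1.90, again in plasmacytoid dendritic cells. Pgk1 was highest in Treg at 5.97 and 8.10, and not apart from C14 at 6.38 and 6.02. These 3 enzymes therefore shared their lowest cluster, C19, but not their highest.

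Pgam1 was highest in 2 tumor clusters and Stromal cells: it stood at 7.06 and 7.64 CP10K in C14, 6.22 and 7.30 in Stromal cells and 5.83 and 5.69 in C04. The other tumor clusters, C08 at 4.86 and 4.54 and C01 at 4.01 and 3.99, lay below the C02 macrophages at 5.06 and 4.87. Treg had 2.63 and 3.56. Eno1 had its highest values in C02, at 7.29 and 7.44, with C14 at 7.07 and 7.41. Pkm was highest in monocytes at 13.4 and 11.9, and Treg, at 10.7 and 13.4, did not stand apart from them. Ldha was highest in the cycling CD8 T cells of C11, at 10.8 and 12.7, and in Treg, at 10.3 and 12.1. The C20 dendritic cells had Ldha at 9.25 and 9.28, beside a Pkm of 4.67 and 4.86 that was among the lower levels of that gene. In C17 the same 2 genes were lowest of all clusters ordered, Pkm at 2.77 and 3.04 and Ldha at 2.28 and 2.33.

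**Figure D2:**
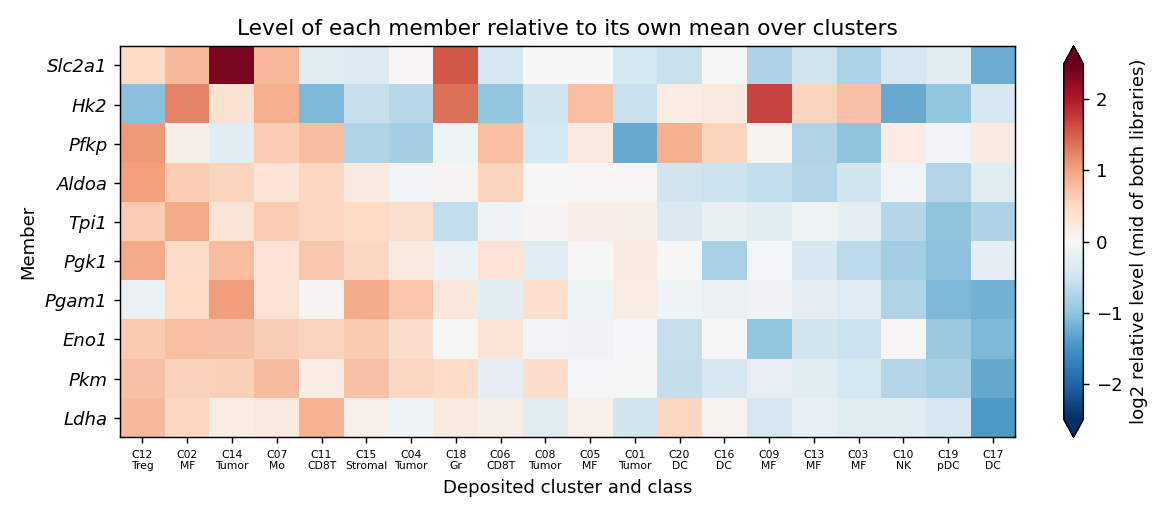
Level of each member (rows) in each ordered cluster (columns), as log2 of the mean of the libraries plus 0.1, minus the gene's own mean over clusters. The rows of Slc2a1, Hk2 and Pfkp differ from the rest: Slc2a1 peaks in C14, Hk2 in C09 and Pfkp in Treg (C12).

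Across the 40 cluster and library means, 8 members varied more alike than Hk2 and Pfkp did. The Pearson correlation of a member with the mean z score of all members was between 0.71 and 0.88 for Slc2a1 and for the enzymes from Aldoa to Ldha, and 0.20 for Hk2 and 0.27 for Pfkp. That mean holds the member itself: the mean correlation of a member with the other 9 ran from 0.43 (Slc2a1) to 0.57 (Eno1) for those 8, and was 0.039 for Hk2 and 0.098 for Pfkp. The closest pairs were Aldoa with Eno1 (0.83), Tpi1 with Pkm (0.82) and Pkm with Pgam1 (0.81). Hk2 and Pfkp had a correlation of -0.10. These points share libraries and depth, and the 20 clusters are not independent samples, so the values are descriptions.

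Outside the list, the genes most like the mean of the members were Gapdh (0.74), the glycolytic dehydrogenase between Tpi1 and Pgk1, and Mif (0.71), a cytokine gene that HIF-1 raises. Next came Higd1a (0.67), a hypoxia-induced mitochondrial protein gene, Prdx6 (0.63), a peroxidase gene, and Capg (0.61), which encodes an actin capping protein. Bnip3, a mitophagy gene that HIF-1 raises, was the gene most like Slc2a1 (0.70). The gene most like Ldha was Gpi1 (0.72), which encodes the isomerase after hexokinase. Hk2 was most like Sem1 (0.82), Pfkp most like Baz1a (0.79) and Pgam1 most like Aprt (0.82).

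Slc2a1, Hk2, Pfkp and Ldha share their steps with sister genes, and the share each held differed between cell types. With 3′ counting a molecule gives 1 UMI whatever its length, so shares of UMIs are given. Slc2a1 made up 99.3% of Slc2a1 and Slc2a3 UMIs in WT Tumor cells and 99.5% in S303/7A. In CD8 T cells it made up 44.9% (38.1% to 51.8%) and 38.5% (33.2% to 44.0%), the rest being Slc2a3 (GLUT3, a high-affinity transporter). The exact (Clopper-Pearson) 95% interval is in parentheses. In Treg the Slc2a1 share was 45.8% of 48 UMIs in WT, and in S303/7A 47 of 94 UMIs, and in monocytes 98.6% and 95.7%.

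Hk2 held 42.6% of the UMIs of Hk1, Hk2 and Hk3 in WT macrophages and 49.9% in S303/7A. In monocytes its share was 30.5% (25.9% to 35.3%) in the WT library against 44.5% (38.9% to 50.2%). It was 26.2% and 31.5% in Tumor cells, and 12.7% and 19.9% in CD8 T cells. In monocytes the shift came with Hk3, the myeloid hexokinase, which stood at 0.854 CP10K (WT) and 0.359 (S303/7A), while Hk2 itself was 0.507 and 0.552. Pfkp held 71.9% and 64.9% of phosphofructokinase UMIs (with Pfkl and Pfkm) in CD8 T cells but 33.3% and 32.6% in Tumor cells. Ldha held at least 95.9% of Ldha and Ldhb UMIs in every class compared. Plasmacytoid dendritic cells were the exception among ordered clusters, with Ldha at 70.3% (61.9% to 77.8%) and 78.7% (72.9% to 83.8%).

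The cycling CD8 T cells carried more glycolysis RNA than the other CD8 T cells, and the cycling macrophages less than the other macrophages pooled. The cycling clusters were set beside the other clusters of their class: 10 proliferation genes summed to 35.7 and 29.2 CP10K in C11, 19.2 and 21.4 in C13 (MF) and 15.9 and 14.04 in C04 (Tumor). Ldha stood at 10.8 CP10K in C11 against 6.70 in C06 in WT, a ratio of summed UMIs of 1.60 (1.51 to 1.71), and at 12.7 against 7.49 in S303/7A, with a ratio of 1.75 (1.66 to 1.85). Tpi1 was higher in C11 by 0.79 on the log2 scale in WT and by 0.48 in S303/7A, and Pkm by 0.40 and 0.41. Aldoa showed almost no difference, at 0.06 and -0.10. The median of all genes tested was 0.04 and 0.06. C11 cells were also deeper, with medians of 9747 UMIs in WT and 13510 in S303/7A against 4577 and 7035 in C06, and the part of depth in this result was not tested.

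Cycling macrophages went the other way for all 10 members in both libraries, where 43.7% of all genes in WT and 40.1% in S303/7A were lower. Aldoa stood at 3.41 CP10K in C13 against 6.82 in the other macrophages in WT, a log2 ratio of -0.98, and at 3.90 against 6.35 in S303/7A, a log2 ratio of -0.69. The other 9 members ran from -1.04 (Pfkp) to -0.40 (Ldha) in the WT library and from -0.58 (Slc2a1) to -0.16 (Pgam1) in the S303/7A library, against a median of all genes of 0.06 and 0.07. Of the pooled clusters C02 and C05 stood above C13 in both libraries, with sums of 59.9 and 53.4 and of 37.4 and 36.5 CP10K. The C03 macrophages, with few proliferation UMIs (1.90 and 1.24), summed to 26.8 and 27.3 and C09 to 29.8 and 27.8, about as low as C13 at 27.2 and 29.7. C13 cells were also deeper than the class, with medians of 9330 and 18801 UMIs against 5388 and 14044, and the part of depth in this result was not tested. Cycling tumor cells were mixed beside the other tumor clusters pooled. Slc2a1 was lower in C04 by 0.30 in WT and by 0.84 in S303/7A on the log2 scale. Eno1 was higher by 0.34 and 0.31. The pool holds C14, with Slc2a1 at 1.42 and 2.40 CP10K. C04, with Slc2a1 at 0.304 and 0.297, lay above C01 (0.181 and 0.199) and near C08 (0.284 and 0.304).

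**Figure D3:**
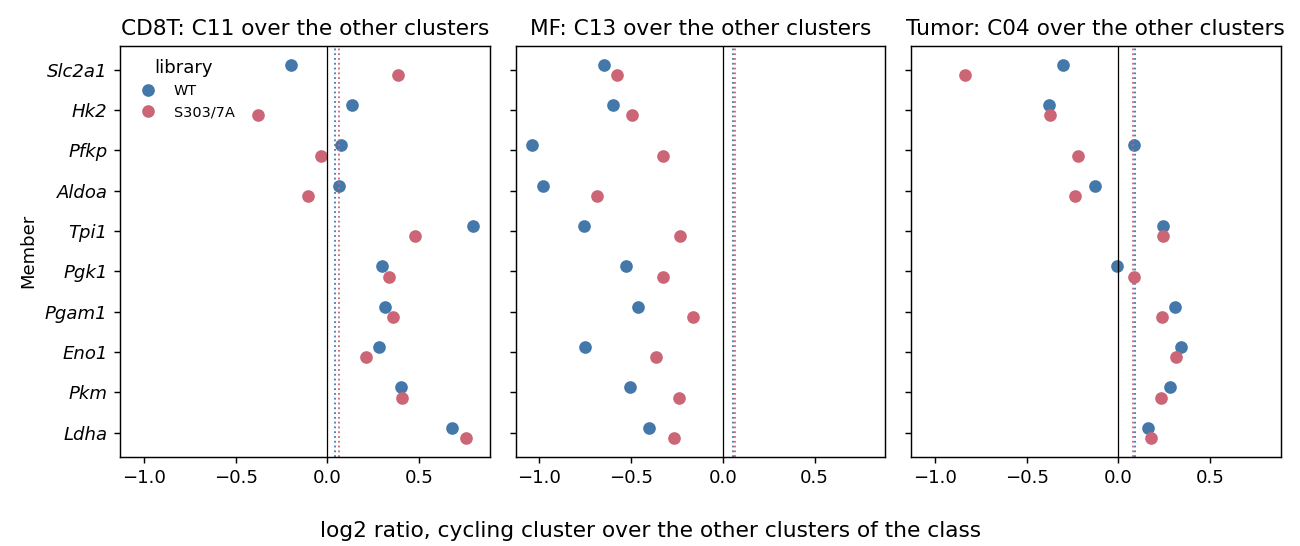
Log2 ratio of each member (y axis) in the cycling cluster over the other clusters of the same class (x axis), by library. Dotted lines mark the median of all genes tested. All 10 members lie left of 0 in MF (C13), and Tpi1, Pkm and Ldha lie right of 0 in CD8T (C11) in both libraries.

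Between the genotypes, the member past the fold in Tumor cells was the glucose transporter gene Slc2a1. The summed members were level, at 40.5 CP10K for WT and 40.4 for S303/7A. Slc2a1 stood at 0.367 in WT and 0.565 in S303/7A, a log2 ratio (with 0.1 CP10K added to both levels, which understates low genes) of 0.51 and a ratio of summed UMIs of 1.44 (1.35 to 1.54). It was the only 1 of 10 members past the fold used here, an absolute log2 ratio of 0.5 (1.41-fold), and 4.92% of all 2601 genes tested in Tumor cells were past it. It lay just inside: from summed UMIs with the same pseudocount it was 0.43, short of the fold. The other 9 members lay between -0.07 (Tpi1) and 0.18 (Hk2), beside a median of all genes of -0.06. In all, 6 of 10 members were above 0. Of the 8 members with at least 0.5 CP10K in 1 library, as the genes tested had, 4 were above 0, against 36.6% of all genes. Counted likewise by tumor cluster, 0 of 7 were above 0 in C08 (37% of all genes) and 3 of 7 in C04 (37.6%). In C01 it was 5 of 7 (46.6%) and in C14 7 of 8 (41.1%). The summed members stood at 39.7 and 36.1 CP10K in C08 and at 53.6 and 57.8 in C14. In C04 they stood at 43.8 and 43.7, and in C01 at 34.7 and 36.1.

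Within the tumor clusters, a Slc2a1 difference beyond counting error was found in C14 only. There it was 1.42 in WT and 2.40 CP10K in S303/7A, a log2 ratio of 0.72 and a ratio of 1.67 (1.52 to 1.82). In C01 the log2 ratio was 0.09, in C08 0.07 and in C04 -0.03, and all 3 intervals of the ratio included 1. The difference between clusters has no test, with 1 library per genotype. Hk2 in C14 stood at 0.251 and 0.429, from 172 and 173 UMIs, a ratio of 1.78 (1.44 to 2.22). Pfkp stood at 0.298 and 0.452, a ratio of 1.80 (1.47 to 2.20), which on the log2 scale with the pseudocount is 0.47 and just short of the fold. With Slc2a1 and Hk2, 2 of 10 members were past the fold in C14. Hk2 lay below the 0.5 CP10K asked of the genes tested. Of the 8 members at that level 1 was past the fold, against 7.83% of all genes, or 4.26% counted upwards only. RNA of Slc2a1, Hk2 and Pfkp was thus further apart than that of the 7 members from Aldoa to Ldha, which lay between -0.08 (Pgk1) and 0.13 (Ldha). Hk2 and Pfkp share their steps with sister genes, so this describes the members and not whole steps. By summed UMIs Pgk1 had a ratio of 0.994 (0.947 to 1.04). The rest of those 7 members ran from 1.08 (1.03 to 1.12) for Aldoa to 1.20 (1.16 to 1.24) for Pkm, all with intervals above 1. Of the 3 other glycolysis genes at level in C14, 0 were past the fold, with a median log2 ratio of 0.07.

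The makeup of the Tumor class moved with its Slc2a1 level. Of the Tumor cells C14 made up 10.2% (WT) and 14.5% (S303/7A), and the cycling cluster C04 33.4% and 14.2%. With clusters weighted equally the Tumor log2 ratio of Slc2a1 was 0.48, and with cells of like depth weighted equally it was 0.52. Without the 25% of cells richest in markers of other cell types it was 0.42, and those markers had medians of 1.32 CP10K (WT) and 3.31 (S303/7A) Tumor cells. Whether the difference reflects the genotype or these 2 pools of tumors cannot be told apart.

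Other genes raised by HIF-1 were listed beside the members. In Tumor cells 7 of the 8 such genes at a level of at least 0.5 CP10K were higher in S303/7A, against 36.6% of all genes, and 1 was past the fold, against 4.92%, with a median log2 ratio of 0.21 against -0.06 for all genes. Bnip3 was highest, at 0.465 and 0.763, a ratio of 1.66 (1.57 to 1.76). Unlike Slc2a1, Bnip3 had intervals above 1 in all 4 tumor clusters, from 1.38 (1.21 to 1.56) in C08 to 1.70 (1.52 to 1.89) in C01. In C14, 10 of the 13 such genes at level were higher and 3 lower, where 41.1% of all genes were higher. There 1 was past the fold, upwards, against 4.26% of all genes, with a median log2 ratio of 0.14 against -0.06. Of this list, and named after their values were seen, Higd1a stood at 3.20 and 5.02 in C14 and Mif at 9.67 and 12.3. Hif1a itself, whose protein is controlled mainly after translation, stood at 0.469 and 0.591 there.

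**Figure D4:**
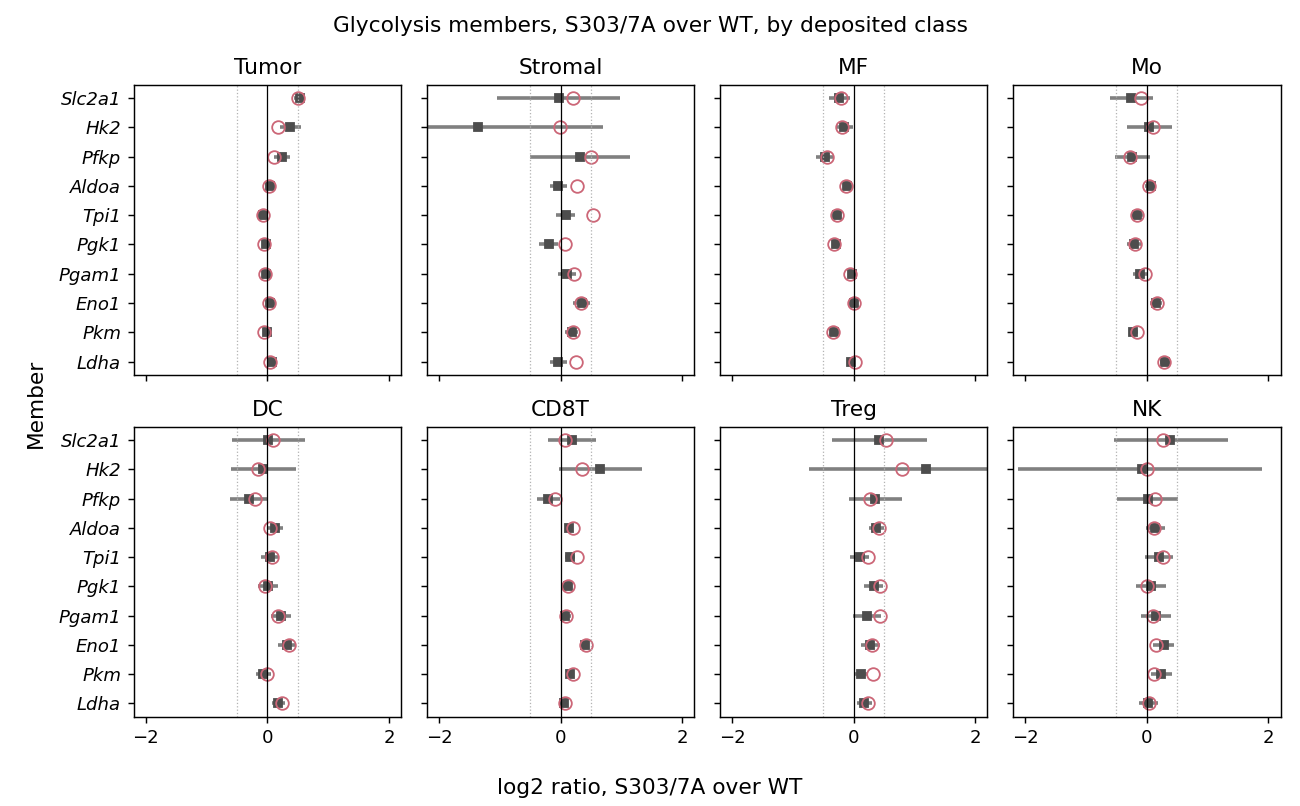
Log2 ratio of S303/7A over WT (x axis) for each member (y axis) in the 8 classes compared. Open circles are ratios of mean levels with the pseudocount, squares ratios of summed UMIs with 95% counting intervals (cut at the axis limits), and dotted lines the fold of 0.5. Slc2a1 in Tumor cells lies at 0.51, and in MF 8 of 10 members lie below 0.

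In macrophages Pkm, Pgk1 and Tpi1 were lower in S303/7A, by more than Eno1 and Ldha differed. Pkm stood at 8.51 CP10K (WT) and 6.71 (S303/7A), with a ratio of 0.801 (0.782 to 0.821). Pgk1 stood at 4.07 and 3.25, a ratio of 0.818 (0.789 to 0.848), and Tpi1 at 5.50 and 4.51, a ratio of 0.828 (0.803 to 0.854). Eno1 stood at 4.44 and 4.48, a ratio of 1.01 (0.977 to 1.04). Ldha stood at 6.77 and 6.86 in the mean over cells, and its ratio of summed UMIs was 0.973 (0.949 to 0.998), just below 1. No member was past the fold (0 of 10, against 10.9% of 2554 genes), and 2 of 10 members were above 0, against 51.7% of all genes. Pfkp had the lowest log2 ratio, -0.44, from 0.516 and 0.353.

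These ratios were read within the 5 macrophage clusters. Pkm was lower in S303/7A in each of them, with ratios from 0.782 in C09 to 0.938 in C13, and Pgk1 likewise, from 0.817 in C02 to 0.907 in C05, though the intervals of Pkm in C13 and of Pgk1 in C09 included 1. Tpi1 was not: its ratio was 0.732 (0.699 to 0.768) in C02, 1.09 (1.01 to 1.19) in C03 and 1.13 (1.02 to 1.24) in C13. Pfkp was 0.411 (0.295 to 0.575) in C03 and 1.29 (0.879 to 1.94) in C13. C02, the macrophage cluster with the most glycolysis RNA, made up 35.4% of WT and 25.3% of S303/7A macrophages, and C13 8.02% and 13.2%. The sum over members was -0.17 on the log2 scale for the class and -0.05 with the clusters weighted equally.

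The depth gap was widest in macrophages, and the direction differed by depth. In the shallowest of 3 tiers of UMIs per cell the summed members stood at 44.5 CP10K (WT) and 32.7 (S303/7A), in the middle tier at 36.5 and 41.1, and in the deepest at 39.0 and 35.2. Macrophage markers summed to 135 and 265 CP10K, monocyte markers to 50.5 and 12.5 and erythroid markers to 0.0339 and 3.10 in the class, and their part in the result was not tested. Beside the members, Hif1a stood at 1.23 and 0.848 in macrophages, a ratio of 0.719 (0.670 to 0.772), and Slc16a3, the lactate exporter, at 0.631 and 0.458, a ratio of 0.739 (0.672 to 0.814). Gapdh stood at 20.8 and 22.3 and did not share that direction.

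Monocytes showed a like split between enzymes. Ldha stood at 6.79 CP10K (WT) and 8.32 (S303/7A), with a ratio of 1.24 (1.16 to 1.32), and Pkm at 13.4 and 11.9, a ratio of 0.856 (0.814 to 0.900). Pgk1 stood at 4.90 and 4.28, a ratio of 0.867 (0.797 to 0.944). As many as 4 of 10 members were above 0, against 50.8% of all genes, and 0 were past the fold, against 18.3%. Gpi1 stood at 2.57 and 3.51, a ratio of 1.37 (1.24 to 1.52), and Hif1a at 1.50 and 0.957, a ratio of 0.620 (0.523 to 0.735). The monocyte markers themselves summed to 209 and 118 CP10K and macrophage markers to 41.8 and 83.7, and their part in the ratios was not tested.

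Regulatory T cells were the only class compared in which all 10 members had a log2 ratio above 0, against 43.1% of all genes. Aldoa stood at 10.8 CP10K (WT) and 14.4 (S303/7A), with a ratio of summed UMIs of 1.29 (1.19 to 1.41), and Pgk1 at 5.97 and 8.10, a ratio of 1.25 (1.13 to 1.40). Eno1 stood at 6.17 and 7.60, a ratio of 1.21 (1.08 to 1.35), and Ldha at 10.3 and 12.1, a ratio of 1.13 (1.04 to 1.23). The intervals of Slc2a1, Hk2, Pfkp, Tpi1 and Pgam1 included 1. The 2 of 10 members past the fold were Hk2, with 3 and 11 UMIs (ratio 2.28, 0.603 to 12.7), and Slc2a1, with 22 and 47 UMIs (ratio 1.33, 0.785 to 2.32), so both rested on few molecules. Of the 9 members with at least 0.5 CP10K in 1 library, as the genes tested had, 1 was past the fold. Of all 3118 genes tested in Treg, 18.4% were past it.

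Most other glycolysis genes were higher in Treg of S303/7A too, and the HIF-1 genes were mixed. Gapdh stood at 21.9 and 29.1 CP10K, with 5 of the 6 other glycolysis genes at level higher in S303/7A, against 43.1% of all genes. The sixth, Slc2a3, stood at 0.588 and 0.485. Of the 8 other HIF-1 genes at level, 5 were higher and 3 lower, where 43.1% of all genes were higher. Past the fold were 3, all upwards, against 18.4% of all genes in either direction. Bnip3 stood at 0.581 and 1.06, a ratio of 1.69 (1.19 to 2.43), and Fam162a, a HIF-1 target that acts at mitochondria, at 0.806 and 1.69, a ratio of 1.81 (1.39 to 2.37). P4ha1, which encodes a collagen prolyl hydroxylase subunit and is also a HIF-1 target, was the lowest of them at 0.968 and 0.742. The 3 Treg markers summed to 14.8 CP10K and 13.04, and the 29 markers of other cell types to 32.3 and 25.5, with 3 and 8 of them at 0. Their part in the result was not tested.

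Glycolysis RNA in T cells went with depth inside each library. In WT Treg the summed members went from 44.1 CP10K in the shallowest tier to 56.1 and 72.4, and in S303/7A from 52.9 to 69.6 and 72.5. The libraries were thus level in the deepest tier (log2 ratio 0.0023) and apart in the others (0.26 and 0.31). With the tiers weighted equally the log2 ratio of the sum was 0.18 in place of 0.34, and 10 of 10 members were above 0, against 45.3% of all genes. In CD8 T cells the WT sum went from 32.7 to 43.6 and 53.3 and the S303/7A sum from 39.3 to 44.0 and 54.6, so the libraries were close in the deeper pair of tiers.

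**Figure D5:**
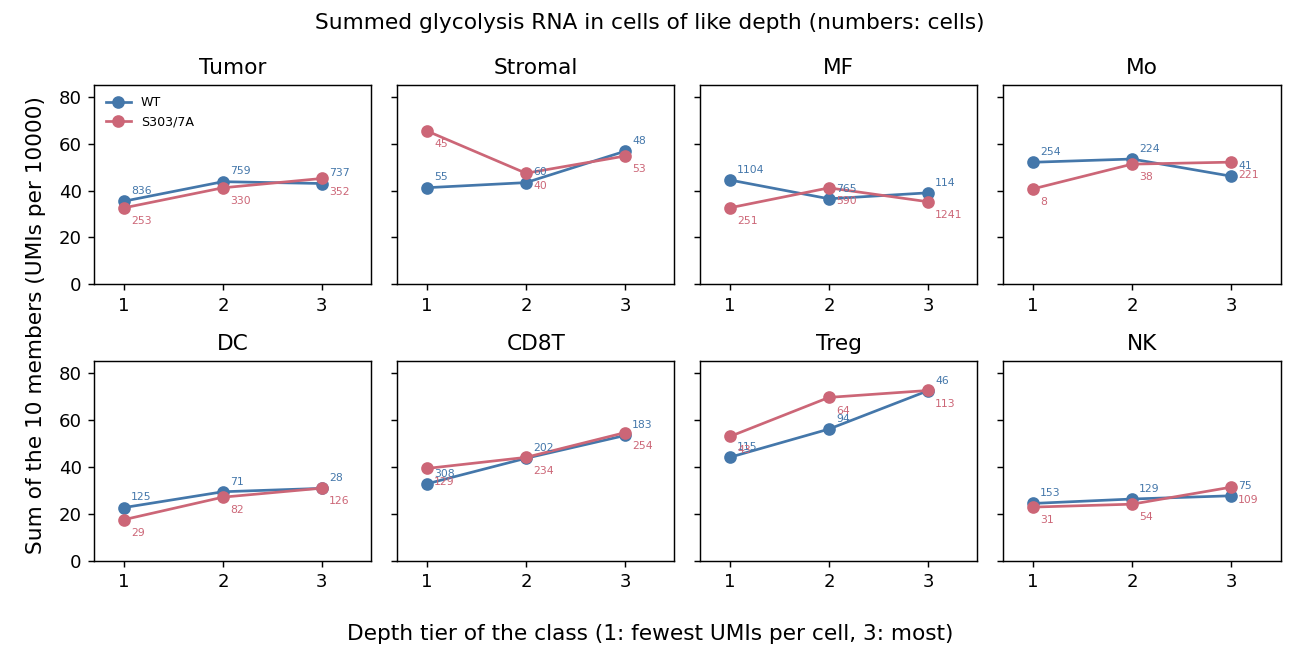
Summed level of the 10 members (y axis, UMIs per 10000) in 3 tiers of UMIs per cell (x axis, tertiles of the class over both libraries), by library, with the number of cells beside each point. In Treg and CD8T the lines rise with depth and meet in the deepest tier, where Treg stand at 72.4 and 72.5.

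CD8 T cells had 9 of 10 members above 0, against 40.9% of all genes, and 0 past the fold, against 7.23%. Eno1 had the highest log2 ratio, 0.43, at 4.92 CP10K (WT) and 6.64 (S303/7A), with a ratio of 1.32 (1.25 to 1.38). It was about as far apart in the non-cycling cluster C06, at 4.48 and 6.35, as in the cycling cluster C11, at 5.47 and 7.36. Tpi1 stood at 4.04 and 4.91 in the class, and in C06 at 3.03 and 4.41, a log2 ratio of 0.53. With Hk2 (9 and 36 UMIs), which was below 0.5 CP10K, Tpi1 made 2 of 10 members past the fold in C06. Of the 8 members at that level 1 was past it, against 8.11% of all genes there.

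Their makeup moved too: cycling C11 cells made up 44.2% of WT and 28.5% of S303/7A CD8 T cells, and 7 of the 9 proliferation genes at level were past the fold downwards, against 4.19% of all genes. With the tiers of depth weighted equally the sum of the members had a log2 ratio of 0.09 in place of 0.20, 7 of 10 members were above 0, against 42.3% of all genes, and Eno1 stood at 0.34. Monocyte markers summed to 34.8 and 24.1 CP10K in this class, macrophage markers to 5.25 and 12.2, and the erythroid markers to 0.0160 and 3.59. What part they have in the ratios was not tested.

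NK cells, the subject of the series' title, had little glycolysis RNA and small differences. Their members summed to 25.8 CP10K (WT) and 27.9 (S303/7A). Tpi1 stood at 2.14 and 2.60, a ratio of 1.14 (0.975 to 1.34), and Pkm at 4.13 and 4.51, a ratio of 1.18 (1.05 to 1.33). Eno1 stood at 4.15 and 4.61, a ratio of 1.21 (1.08 to 1.36), and Ldha was level at 5.12 and 5.26. Slc2a1 rested on 20 and 23 UMIs and Hk2 on 6 and 5, so no difference of either was detectable at this depth. The count above 0 was 9 of 10, against 43.6% of all genes, and 0 members were past the fold, against 11.5%. NK markers summed to 81.9 and 51.9 CP10K in this class, macrophage markers to 5.00 and 11.9 and monocyte markers to 29.3 and 19.8, and their part in the ratios was not tested.

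In cells of like depth that count did not hold: 4 of 10 NK members were above 0, against 50.4% of all genes, and the sum had a log2 ratio of -0.0018 with the tiers weighted equally. The gene of the neighbouring pathways with the widest gap in NK cells was Ppp1r3b, which encodes a subunit that directs a phosphatase to glycogen. It stood at 1.18 in WT and 0.272 in S303/7A, with a ratio of 0.220 (0.145 to 0.325), and in Treg at 0.590 and 0.125.

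Dendritic and Stromal cells gave ratios that turned on how cells were weighted. In DC, Eno1 stood at 2.83 and 3.64 CP10K, a ratio of 1.25 (1.13 to 1.38), and Ldha at 4.98 and 5.91, a ratio of 1.13 (1.05 to 1.22). Of the members, 7 of 10 were above 0 (46.5% of all genes) and 0 past the fold (10.9%), while with tiers weighted equally 2 of 10 were above 0, against 44.4% of all genes. Macrophage markers summed to 10.4 and 26.1 CP10K in DC and monocyte markers to 29.2 and 8.68, and their part was not tested. Stromal cells had 9 of 10 above 0 (50.7% of all genes) and 1 past the fold (29.5% of all genes). That 1 was Tpi1, at 4.59 and 6.67, whose ratio of summed UMIs was 1.06 (0.947 to 1.18). Only Eno1, at 1.27 (1.16 to 1.39), and Pkm, at 1.14 (1.06 to 1.23), had intervals above 1 there, and Pgk1, at 0.876 (0.785 to 0.977), had 1 below it.

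Over all 20 ordered clusters, Ldha was higher in S303/7A in 19 and Eno1 in 17, Aldoa in 15, Pkm and Pgk1 in 8 each and Pfkp in 5, by means over cells. By summed UMIs, a count added after the means had been seen, Ldha was higher in 13, Eno1 in 17, Aldoa in 14, Pkm and Pgk1 in 8 each and Pfkp in 7, so the Ldha count holds for the means only. Among 2502 genes with a mean of at least 0.5 CP10K, 2.12% were higher in at least 19 clusters, 7.11% in at least 17 and 14.1% in at least 15, by means. The share higher in at most 8 was 44.5% and in at most 5 21.3%. Most of the Ldha ratios were small, with a log2 ratio of 0.29 in monocytes as the highest and -0.09 in C08 as the lowest of the 17 clusters compared. The clusters of a library share its preparation and depth, so they are not separate tests of a genotype.

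Lists next to glycolysis were counted by class, among genes at level. In monocytes 9 of 9 citrate cycle genes were higher in S303/7A, against 50.8% of all genes, and 3 were past the fold, against 18.3% (Fh1, fumarase, at 0.281 and 0.670 was highest). In Stromal cells 10 of 11 were higher, against 50.7% of all genes, and 4 were past the fold, against 29.5%. In CD8 T cells 3 of 10 were higher, against 40.9% of all genes. The medians were 0.38 in monocytes, 0.35 in Stromal cells and -0.09 in CD8 T cells, beside 0.01, 0.01 and -0.05 for all genes. In the pentose phosphate list Tkt (transketolase) was past the fold in monocytes, at 2.22 and 3.47, and in Treg, at 1.15 and 1.83. Pgd was past it in Stromal cells, at 0.632 and 0.941, from 66 and 69 UMIs. Each was 1 of 4 genes at level, against 18.3%, 18.4% and 29.5% of all genes. Among genes of lactate and pyruvate handling, 1 of 4 at level was past the fold in Stromal cells (29.5% of all genes) and 1 of 7 in Treg (18.4%). These were Mpc2 of the mitochondrial pyruvate carrier, at 1.50 and 0.892 in Stromal cells, and Mpc1, at 0.962 and 0.649 in Treg. In the other 6 classes 0 of the 3 to 5 genes at level were past it. There 4.92% (Tumor) to 18.3% (monocytes) of all genes were. Hsf1 was on the list of regulators and did not reach 0.5 CP10K in any of the 8 classes compared. In Tumor cells it stood at 0.253 and 0.193.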

How the data were processed

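Tumor cells and immune cells of 2 droplet libraries (WT and S303/7A, 1 each) were analysed. The authors deposited a natural log per gene and cell, ln(1 + x), where x is the gene's UMIs after scaling the cell to 100000. The deposited cell annotation gives UMI and gene counts per cell and the mitochondrial percent (at most 9.98%), besides each cell's library, 1 of 22 clusters and 1 of 11 classes. Per the submitters' processing notes the tools were Cell Ranger and Seurat 3.0 and the builds mm10 and GRCm38. No source used here states the cell filters, the clustering settings or how doublets were treated.

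The log was undone and multiplied by each cell's total, which gave UMIs within 0.1 of a whole number for 99.9% of nonzero values. The gene number matched in 11456 of 11456 cells, and totals differed by at most 3 UMIs. No cell was left out, and no doublet caller was run: leaving out the deepest 5% of cells stands in for it. Levels are means over cells. Log2 ratios are S303/7A over WT with 0.1 CP10K added, in 8 classes and 17 clusters with at least 50 cells in each library, and genes tested had at least 0.5 CP10K in 1 of the libraries. Counts of members take all 10, also those below that level, beside shares of the genes tested. Of the members at that level, 7 of 8 were above 0 in CD8T and in NK. It was 6 of 8 in DC, 7 of 7 in Stromal cells, 9 of 9 in Treg and 2 of 9 in MF. Intervals are exact (Clopper-Pearson, conditional on the summed UMIs) at 95%, and PCR and cell sampling add error they do not hold. With 1 library per genotype no p-value was made.

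All 10 members are shown for each of the 8 classes in the plot of genotype ratios, and the text names a selection of them by class. From the other lists, some of the genes with the highest or lowest log2 ratio in a class are named, and not all. Some isozymes, Gapdh, Bnip3, Higd1a, Mif, Hif1a, Slc2a3, Hk3 and Hsf1 were named in further classes or clusters after their values were seen. Like genes were ranked over clusters with at least 20 cells in each library. The members and all lists were chosen with earlier results of these data known. On simulated NK counts (2273 genes, 200 of them changed 2-fold) the interval held the true ratio for 96.0% of genes. There 95.5% of changed and 1.11% of unchanged genes were past the fold. The simulated counts held counting error alone, with no spread between cells except depth and none between pools of tumors. They check the calculation and give no error rate for the real libraries. Alternatives were other pseudocounts, summed UMIs, thinning to 1000 UMIs, centring, equal cluster weights, other folds and cell subsets. A shared depth window and equal weights for 3 depth tiers were added after the data had been seen, and thinning was averaged over 10 draws after a noisy single draw had been seen. Python 3.11.15, numpy 2.4.6, scipy 1.17.1, pandas 2.3.3 and matplotlib 3.10.9 were used.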

Additional observations from a re-analysis of the deposited data

Results flagged for a closer look

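In 3 members the genotype difference was at least 0.25 on the log2 scale in opposite directions in macrophages and in T cells, with counting intervals on opposite sides of 1. Without that threshold, Aldoa (0.902 to 0.951 in MF, 1.19 to 1.41 in Treg) and Ldha (0.949 to 0.998, 1.04 to 1.23) also had intervals on opposite sides of 1. Pgk1 had a log2 ratio of -0.3166 in MF and 0.4336 in Treg. Pkm had -0.339 in MF and 0.318 in Treg. Tpi1 had -0.2812 in MF and 0.2751 in CD8T. Within the MF clusters its ratio of summed UMIs ran from 0.732 (0.699 to 0.768) in C02 to 1.13 (1.02 to 1.24) in C13. The threshold of 0.25 on the log2 scale was chosen after values had been seen. With 1 library per genotype the difference between classes was not tested. With depth tiers weighted equally Pkm stood at -0.25 in MF and 0.15 in Treg.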

How the results depend on the processing

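No member past the fold in a class changed sign under the settings run. With depth tiers weighted equally 20 of the 80 member ratios changed sign, and of those at 0.25 or more 0 did. The log2 ratio of the summed members was then -0.0392 in Tumor, -0.138 in MF, -0.0736 in Mo, -0.134 in DC, 0.0878 in CD8T, 0.1763 in Treg and -0.0018 in NK, with 1 member past the fold in Mo. In the shared depth window 9 of 30 ratios changed sign, of those at 0.25 or more 1 (Ldha in Stromal cells). In that window, which only 3 classes filled with at least 50 cells per library, it was -0.0663 in Tumor, 0.0704 in Stromal and 0.0476 in CD8T cells, and 0 Stromal members were past the fold. From summed UMIs it was 0.017 in Tumor, 0.0871 in Stromal, 0.1473 in CD8T and 0.2305 in Treg, with 0 members past the fold in Tumor, Stromal and Treg. Aldoa and Ldha in Stromal cells changed sign there. Thinned to 1000 UMIs it was 0.1469 in Stromal and -0.1911 in MF, with 0 members past the fold in Tumor, 0 in Stromal, 1 in MF and 1 in Treg. With clusters weighted equally it was 0.0159 in Tumor, -0.0522 in MF and 0.2473 in CD8T, with 0 members past the fold in Tumor. Without the 25% of cells richest in other markers it was 0.0137 in Tumor, -0.2226 in MF, 0.2024 in DC and 0.1603 in CD8T, with 0 members past the fold in Tumor, 1 in MF and 1 in Treg. Without the deepest 5% of cells it was -0.0196 in Tumor, and 2 Stromal members were past the fold. Centred on the median of all genes it was 0.0514 in Tumor, 0.2429 in CD8T and 0.4017 in Treg. A pseudocount of 0.01 put 2 Stromal, 1 MF and 1 CD8T member past the fold, and a pseudocount of 1 put 0 in Tumor, Stromal and Treg. A log2 fold of 0.25 gave 5 members in Stromal, 4 in MF, 2 in Mo, 1 in DC, 3 in CD8T, 8 in Treg and 2 in NK, and a log2 fold of 1 gave 0 in Tumor, Stromal and Treg. The cause of these shifts was not tested. No share of all genes past the fold is given for these folds and settings, so the counts past the fold have no background here. Slc2a1 in Tumor cells stayed between 0.42 and 0.61 except with a pseudocount of 1 (0.20). Adding Eno1b to Eno1, or the second Aldoa row to Aldoa, changed the sign of 0 of 8 ratios each. No paired analysis was possible because each genotype has 1 library.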
